A study of Sus scrofa with 2 samples.

Results

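Mature olfactory neurons in which UMIs of NQO1 outnumbered those of NCAM2 were described in single-nucleus RNA sequencing of olfactory neuroepithelium from newborn piglets (Sus scrofa). There was 1 library from a CFTR knockout piglet and 1 from a wild type piglet, so each genotype stands for 1 animal. The labels do not say how the knockout allele was made. A UMI (unique molecular identifier) marks a captured transcript, so that each is counted once. Nuclei with at least 1000 UMIs were kept when they had UMIs of at least 3 of the 9 genes GNAL, ADCY3, CNGB1, CNGA4, CNGA2, GNG13, STOML3, KIRREL2 and S100A5, and of fewer of the 8 genes GAP43, GNG8, DPYSL5, DPYSL3, DCX, CRMP1, STMN2 and TUBB3. Those with more NQO1 than NCAM2 UMIs, called NQO1-type here, numbered 241 in the CFTR knockout library and 96 in the wild type library, 337 of the 10769 nuclei in all. The reverse class, NCAM2-type, held 258 and 587 nuclei. The undecided mature neurons, with equal counts, held 720 and 406 nuclei, and 703 of those in the CFTR knockout library had neither transcript. The members were thus chosen by their own UMI counts of the genes named here.

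In the mouse, the olfactory epithelium is divided into zones, and a neuron's zone limits the odorant receptor genes from which it chooses the one it expresses. NQO1, a quinone reductase, marks neurons of the dorsal zone in that species, and NCAM2, an adhesion molecule also called OCAM, marks those of the ventral zones. Dorsal and ventral axons carry different guidance receptors and end in different parts of the olfactory bulb. The tables carry no position in the nose, so the word dorsal rests here on NQO1 alone.

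The members carried the transduction genes of mature olfactory neurons, which the rule had used. GNAL, the olfactory G protein subunit, stood at 593 CPM (counts per 1000000 UMIs) in the CFTR knockout members and 658 CPM in the wild type members. ADCY3, the adenylyl cyclase that makes the cAMP of the odour response, stood at 311 and 320 CPM. CNGB1, a subunit of the cAMP-gated channel, stood at 135 and 124 CPM, and STOML3, a stomatin of the sensory cilium, at 313 and 544 CPM. Most members rested on few NQO1 UMIs. The margin of NQO1 over NCAM2 was 1 UMI in 139 of the 241 CFTR knockout and 55 of the 96 wild type members, just inside the rule, and the nuclei just outside it were the undecided ones. An NCAM2 UMI was present in 6 CFTR knockout and 4 wild type members.

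NQO1 UMIs were also found in nuclei that were not neurons. Of nuclei with sustentacular markers, 20% (95% Clopper-Pearson interval 15.2 to 25.6) had one among 245 CFTR knockout nuclei and 11.1% (8.18 to 14.7) among 386 wild type nuclei. In macrophages the share was 1 of 30 and 2 of 38 nuclei, at median depths of 1706.5 and 2272.5 UMIs. The members had 3211 UMIs per nucleus in the CFTR knockout library and 3874.5 in the wild type library at the median, with 1029553 and 490583 UMIs in all. Of all mature neurons, 22.5% (274 of 1219, 95% Clopper-Pearson interval 20.2 to 24.9) had an NQO1 UMI in the CFTR knockout library and 13.3% (145 of 1089, 11.4 to 15.5) in the wild type library, and 241 and 96 of these are NQO1-type. Among other types of the wild type library the share with an NQO1 UMI ran from 4.12% of 486 fibroblast nuclei to 19.7% of 66 basal nuclei. The share of fibroblast nuclei was 11.1% of 371 in the CFTR knockout library. For ciliated nuclei it was 16.1% of 579 there and 6.98% of 86 in the wild type library. Basal, endothelial and macrophage nuclei had the lower share in the CFTR knockout library.

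Transcripts of other cell types were present among the members. The sustentacular list (7 genes in the tables) summed to 619 CPM in the CFTR knockout members and 848 CPM in the wild type members, against 519 and 423 CPM in NCAM2-type nuclei and 2887 and 3952 CPM in nuclei of that type. The fibroblast list (6 genes) summed to 297 and 457 CPM, against 357 and 150 CPM in NCAM2-type nuclei. The basal list (5 genes in the tables) summed to 230 and 338 CPM, against 162 and 98.1 CPM. The respiratory ciliated list (8 genes, DNAI1 at 0) summed to 2513 and 1084 CPM, against 1626 and 1553 CPM. The endothelial list (6 genes) lay between 91.3 and 143 CPM in all 4 sums. The glial list (6 genes in the tables) and the macrophage list (6 genes) lay between 16.5 and 91.7 CPM, with the glial gene FABP7 at 0 in the members of both libraries, PTPRC at 0 in those of the CFTR knockout library, and C1QA at 0 in those of the wild type library. The cycling precursor list (6 genes, NEUROD1 at 0) summed to 125 and 106 CPM, against 112 and 139 CPM. In 66 of the 241 CFTR knockout and 22 of the 96 wild type members, the list of some other type had as many detected genes as the mature list. The ciliated list made up 48 and 6 of these. The shares of such members were 27.4% and 22.9%. Among NCAM2-type nuclei they were 17.8% (46 of 258) and 12.4% (73 of 587). Among undecided nuclei they were 35.6% (256 of 720) and 35.2% (143 of 406). The part of these transcripts in the results was not tested. Some results are given below with and without such nuclei. The ciliated and cycling lists were left aside in that removal, which kept 216 CFTR knockout and 80 wild type members. No member's barcode was among the 8 that occur in both libraries.

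CFTR, the chloride and bicarbonate channel named in the genotype label, had 17 UMIs in the CFTR knockout members, which is 16.5 CPM (95% Poisson interval 9.62 to 26.4), against 52 UMIs or 106 CPM (79.2 to 139) in the wild type members. The wild type UMIs lay in 16 nuclei, 1 of which held 13, while the CFTR knockout UMIs lay in 17 nuclei with 1 each. The log2 ratio of CFTR knockout over wild type was -2.68 (-3.57 to -1.87) in the members and -3.11 in nuclei outside the neuron classes. The sources do not say which stretch of CFTR RNA the knockout removes or the reads covered, so these UMIs are no full check of the genotype. All intervals cover counting error only.

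NQO1-type nuclei were 19.8% (17.6 to 22.1) of the 1219 mature neurons of the CFTR knockout library and 8.82% (7.20 to 10.7) of the 1089 of the wild type library, a ratio of 2.24 (1.80 to 2.80). NCAM2-type nuclei were 21.2% (18.9 to 23.6) and 53.9% (50.9 to 56.9), and undecided nuclei 59.1% and 37.3%. Among nuclei assigned to either class, NQO1-type made up 48.3% (43.8 to 52.8) in the CFTR knockout library and 14.1% (11.5 to 16.9) in the wild type library. With every nucleus thinned to 1000 UMIs the shares of NQO1-type were 12.2% of 441 and 5.70% of 526 mature neurons. These shares chose the members or follow from the choice, so they are a description with no test. Outside the neuron classes NQO1 stood at 77.0 CPM in the CFTR knockout and 35.8 CPM in the wild type library. In immature neurons it stood at 56.9 and 24.2 CPM. NCAM2 stood at 62.1 and 210 CPM outside the neuron classes and at 292 and 646 CPM in immature neurons. The part of these differences in the shares was not tested. With 1 animal per genotype, a difference between genotypes and a difference between the 2 animals or their tissue sections cannot be told apart.

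**Figure D1:**
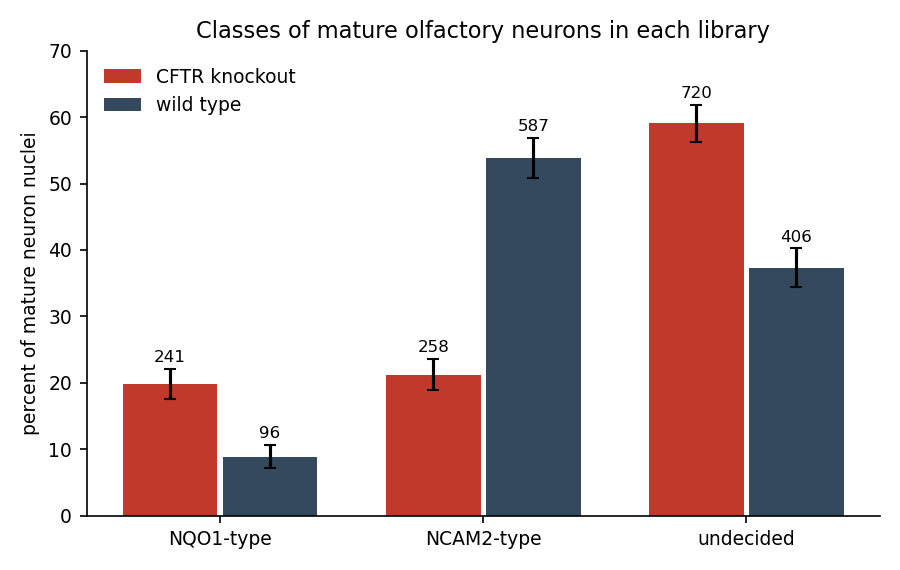
Share of mature olfactory neuron nuclei (percent) in the NQO1-type, NCAM2-type and undecided classes, in the CFTR knockout library (red) and the wild type library (dark blue). Bars are shares, lines are 95% Clopper-Pearson intervals and the number above each bar is its nuclei. NQO1-type stands at 19.8% in the CFTR knockout library and 8.82% in the wild type library.

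Expression was compared between NQO1-type and NCAM2-type nuclei of the same library, with NQO1 and NCAM2 left out. DCC, the netrin receptor that steers growing axons, and FAM19A4, a small secreted protein, were the most raised of the genes named by rank among the called ones. CDH18, a classical cadherin, and NRP2, the semaphorin receptor that marks ventral axons in the mouse, were lower than in NCAM2-type nuclei. UMIs were summed per library and class and fitted with edgeR's quasi-likelihood test, with the library as a block. Of 12476 genes, 161 were higher (1.29%) and 110 lower (0.882%) in NQO1-type nuclei at an adjusted p under 0.05, which is 2.17% in all. The other 17 genes of the rule were among those tested, and 3 of them (DPYSL5, GAP43 and DCX) were called lower, which supports nothing here. Without them 161 genes were higher and 107 lower. At an unadjusted p under 0.05 stood 14.9% of all tested genes. The 2 libraries are the replicates and differ in genotype, and 2 of the called genes had opposite directions in them. The median over all tested genes was 0.02 on the log2 scale. The count rested on the settings: 34 genes were called with 4 mature genes required, 36 with a margin of 2 UMIs between NQO1 and NCAM2, 4 with nuclei thinned to 1000 UMIs and 2 without the library as a block.

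DCC had 317 UMIs in the CFTR knockout members, which is 308 CPM (275 to 344), and 75 UMIs or 153 CPM (120 to 192) in the wild type members. In NCAM2-type nuclei it had 26.3 CPM (17.6 to 37.8) and 16.0 CPM (11.9 to 21.2). Both sums of members lay above both sums of NCAM2-type nuclei, with log2 ratios of 3.55 for CFTR knockout nuclei and 3.25 for wild type nuclei. The fitted log2 ratio was 3.38 (edgeR, adjusted p = 6.03e-05). A DCC UMI was found in 74 of 241 CFTR knockout and 24 of 96 wild type members, against 14 of 258 and 21 of 587 NCAM2-type nuclei. With each nucleus thinned to 1000 UMIs the shares were 19.1% and 11.5%, against 0.388% and 0.511%. Macrophages had a DCC UMI in 0 of 30 and 0 of 38 nuclei, which by a floor of 3 counts allows a share of up to 10% and 7.89%. Without the library as a block the adjusted p of DCC was 0.0987.

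FAM19A4 stood at 167 CPM (143 to 194) in the CFTR knockout members and 75.4 CPM (53.1 to 104) in the wild type members, against 22.7 and 10.1 CPM in NCAM2-type nuclei. Both members' sums lay above the others, and the fitted log2 ratio was 2.81 (edgeR, adjusted p = 0.000792). In the wild type members 14 of its 37 UMIs came from 1 nucleus. The call was lost when nuclei were thinned to 1000 UMIs and when the block was left out, with an adjusted p of up to 0.281.

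ACSM4, an acyl-CoA synthetase whose mouse counterpart marks the dorsal zone, was called higher as well. It stood at 202 CPM (176 to 231) in the CFTR knockout members and 196 CPM (159 to 239) in the wild type members, against 68.9 and 56.9 CPM in NCAM2-type nuclei. Its fitted log2 ratio was 1.62 (edgeR, adjusted p = 0.00502). An ACSM4 UMI was found in 99 of 241 and 47 of 96 members, against 49 of 258 and 119 of 587 NCAM2-type nuclei, so that members with and without it occurred in both libraries.

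**Figure D2:**
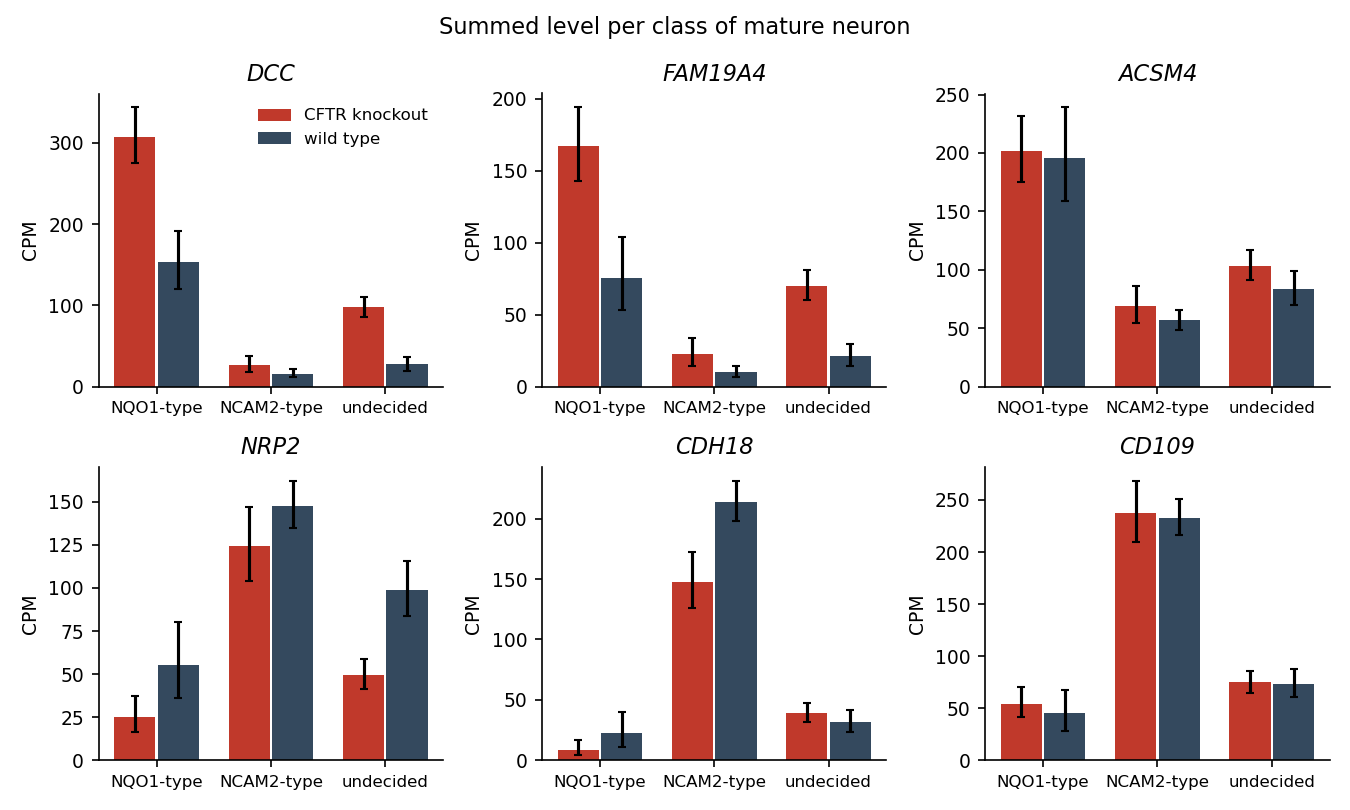
Level in CPM of 6 genes, summed over the NQO1-type, NCAM2-type and undecided nuclei of the CFTR knockout library (red) and the wild type library (dark blue). Lines are 95% Poisson intervals. DCC, FAM19A4 and ACSM4 are highest in NQO1-type nuclei in both libraries, and CDH18, NRP2 and CD109 are highest in NCAM2-type nuclei.

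The undecided neurons were added to the fit as a further class after the data were seen, to compare the members with neurons of equal NQO1 and NCAM2 counts, nearly all of them lacking both transcripts. Of 12476 genes, 30 were higher (0.24%) and 5 lower (0.0401%) in NQO1-type than in undecided nuclei, 0.281% in all. Only 4 genes were called higher over both NCAM2-type and undecided nuclei in these fits, and they are named here after their values were seen: DCC, FAM19A4, ACSM4 and PPA1, an inorganic pyrophosphatase. PPA1 stood at 209 CPM (182 to 239) in the CFTR knockout members and 124 CPM (95.1 to 160) in the wild type members, against 75.3 and 51.0 CPM in NCAM2-type nuclei and 103 and 68.8 CPM in undecided nuclei. Its log2 ratio over NCAM2-type was 1.35 (edgeR, adjusted p = 0.00989) and over undecided nuclei 1.04 (adjusted p = 0.0375). Over undecided nuclei DCC had a log2 ratio of 2.02, FAM19A4 of 1.54 and ACSM4 of 1.18 (edgeR, adjusted p = 0.0357 for each). No gene was called lower than in both classes.

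None of the other 13 named genes that were higher over NCAM2-type was called over undecided nuclei. They were NNAT (neuronatin), GSTA1 (a glutathione transferase), MX2 (an interferon-induced GTPase), MYO3A (a myosin of actin-based protrusions), LAMA3 (a laminin chain), LGR5 (the R-spondin receptor of stem cells), LYPD6, TRAF3IP2 (an interleukin-17 receptor adaptor), HNF4G (a nuclear receptor), CERS4 (a ceramide synthase), PDE4B (a cAMP phosphodiesterase), SLCO1A2 (an organic anion transporter) and RASEF (a Rab GTPase). Their fitted log2 ratios over NCAM2-type ran from 1.86 for RASEF to 2.44 for NNAT, with adjusted p from 0.00502 for SLCO1A2 to 0.0479 for MX2. LGR5 stood at 113 CPM in the CFTR knockout members and 167 CPM in the wild type members, against 42.6 and 23.9 CPM in NCAM2-type nuclei, and at 99.3 and 128 CPM in undecided nuclei. SLCO1A2 stood at 204 and 503 CPM, against 74.4 and 98.5 CPM in NCAM2-type and 154 and 544 CPM in undecided nuclei. In nuclei outside the neuron classes LGR5 stood at 137 and 142 CPM and SLCO1A2 at 301 and 695 CPM, above the members in 3 of these 4 sums.

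Of the 15 named higher genes, 12 had levels within 2-fold of those in undecided nuclei in both libraries, and 11 within 2-fold of those in nuclei outside the neuron classes. Some UMIs were concentrated in few nuclei: 1 CFTR knockout member held 40 of the 51 UMIs of GSTA1, and 1 wild type member 40 of the 64 of NNAT. Without the nuclei in which another type's list reached the mature count, 187 genes were called over NCAM2-type. This removal left the ciliated and cycling lists aside and kept 216 CFTR knockout and 80 wild type members. Of the 271 genes above, 132 kept their call and direction after it, 67 higher and 65 lower. NNAT, GSTA1, MX2, LAMA3 and HNF4G lost their call there.

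Among the named lower genes, CDH18 stood at 8.74 CPM (9 UMIs) in the CFTR knockout members and 22.4 CPM (11 UMIs) in the wild type members, against 148 and 214 CPM in NCAM2-type nuclei. Its fitted log2 ratio was -3.68 (edgeR, adjusted p = 0.000212). CDH8, also a cadherin, stood at 20.4 and 18.3 CPM, against 74.4 and 139 CPM, with a log2 ratio of -2.32 (edgeR, adjusted p = 0.00676). For both cadherins the members of each library lay below every NCAM2-type sum. With nuclei thinned to 1000 UMIs neither was called: CDH18 had an adjusted p of 0.288 in edgeR, and CDH8 one of 0.785 at a log2 ratio of -1.30.

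CD109, a surface protein that binds TGF-beta, stood at 54.4 CPM in the CFTR knockout members and 44.8 CPM in the wild type members, against 238 and 233 CPM in NCAM2-type nuclei, with a log2 ratio of -2.26 (edgeR, adjusted p = 0.000384). MCTP1, a calcium-binding membrane protein, stood at 34.0 and 30.6 CPM, against 139 and 162 CPM, with a log2 ratio of -2.22 (edgeR, adjusted p = 0.00105). For each gene the counting intervals of the 2 libraries overlapped in the members. Neither remained called when nuclei were thinned to 1000 UMIs, where the adjusted p were 0.738 and 0.906.

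NRP2 stood at 25.3 CPM (26 UMIs) in the CFTR knockout members and 55.0 CPM (27 UMIs) in the wild type members, against 124 and 148 CPM in NCAM2-type nuclei. The log2 ratio was -2.30 (-2.96 to -1.69) for CFTR knockout nuclei and -1.43 (-2.04 to -0.87) for wild type nuclei, and -1.89 in the fit (edgeR, adjusted p = 0.00697, and 0.310 with nuclei thinned to 1000 UMIs). A UMI of it was found in 19 of 241 and 13 of 96 members, against 70 of 258 and 234 of 587 NCAM2-type nuclei. Macrophages also carried it, in 5 of 30 and 14 of 38 nuclei.

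The other named lower genes were PCSK1, a prohormone convertase, SLC35F1, CACNG7 (a subunit associated with glutamate receptors), KCNH5 (a voltage-gated potassium channel), FAM189A2, DLGAP3 (a scaffold of the postsynaptic density), FAM155A (a subunit of the sodium leak channel), NSG2 (a vesicle protein of neurons), PSPH (an enzyme of serine synthesis) and DPYSL5, a gene of the rule that is listed for completeness. PCSK1 stood at 4.86 and 12.2 CPM in the members, against 30.8 and 90.6 CPM in NCAM2-type nuclei, with a log2 ratio of -2.87 (edgeR, adjusted p = 0.00855, and 0.742 with nuclei thinned to 1000 UMIs). SLC35F1 and CACNG7 had 0 UMIs in the wild type members. With a floor of 3 counts per sum, their log2 ratios over NCAM2-type there are at most -2.13 and -2.62. Without nuclei in which another type's list reached the mature count, 13 of the 14 lower genes that are not of the rule were still called, all but NSG2. Of the 15 named lower genes, 10 had levels within 2-fold of those in undecided nuclei in both libraries, among them NRP2, CD109, MCTP1 and PCSK1. In undecided nuclei CD109 stood at 74.6 CPM in the CFTR knockout and 73.2 CPM in the wild type library.

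**Figure D3:**
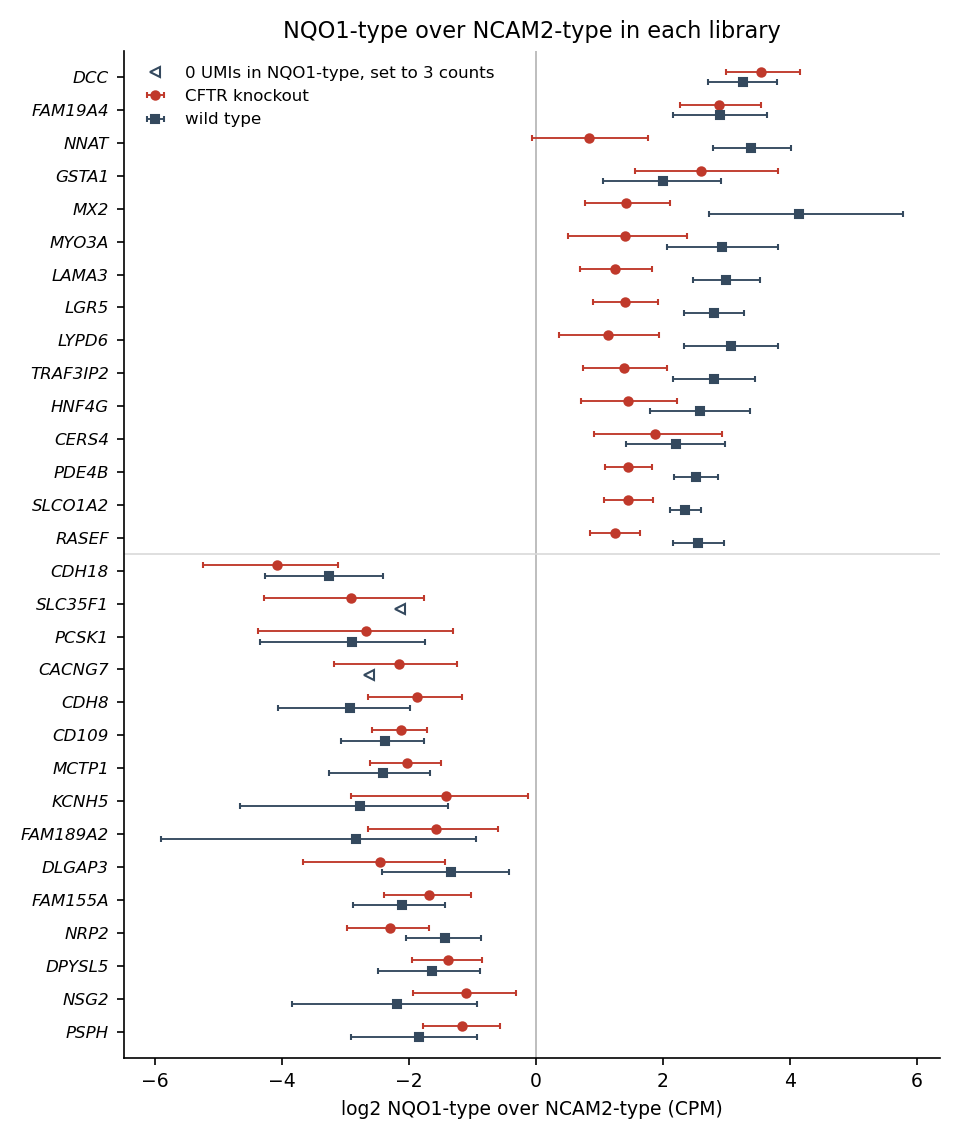
Log2 ratio of NQO1-type over NCAM2-type (CPM) for the 15 highest and 15 lowest named genes, in the CFTR knockout library (red circles) and the wild type library (blue squares), with 95% counting intervals. Open triangles are ratios with 0 set to 3 counts. All points of the upper genes lie right of 0 and all of the lower genes left of it, which the naming rule required. DPYSL5 is a gene of the member rule, and 13 of the 15 upper genes have the larger ratio in the wild type library.

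Genes known in the mouse to follow the zones were read as a list. Of the 3 dorsal ones, ACSM4 was called higher, and of the 4 ventral ones, NRP2 was called lower, against 1.29% and 0.882% over all genes. ROBO2, a Slit receptor of dorsal axons in the mouse, stood at 1096 CPM in the CFTR knockout members and 938 CPM in the wild type members, against 756 and 802 CPM in NCAM2-type nuclei (log2 0.34, edgeR, adjusted p = 0.221). Without nuclei in which another type's list reached the mature count the adjusted p was 0.0202. SEMA3F, the semaphorin that dorsal mouse axons release, had 16 and 7 UMIs in the members, which is 15.5 and 14.3 CPM, against 2.72 and 4.58 CPM (log2 1.99, edgeR, adjusted p = 0.0752, and 0.0472 without those nuclei). The nuclear factor I genes, ventral in the mouse, were not called lower. NFIA stood at 465 and 799 CPM, against 412 and 448 CPM, NFIB at 348 and 418 CPM, against 393 and 295 CPM, and NFIX at 17.5 and 46.9 CPM, against 16.3 and 15.0 CPM (edgeR, adjusted p = 0.168, 0.830 and 0.265).

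None of the 15 tested genes for receptor handling, transduction and chloride was called over NCAM2-type by edgeR or DESeq2, and 5 had an unadjusted p under 0.05 in edgeR, against 14.9% of all genes. RIC8B, an exchange factor for the olfactory G protein, stood at 1477 CPM in the CFTR knockout members and 1588 CPM in the wild type members, against 1696 and 2023 CPM in NCAM2-type nuclei. PDE1C, a phosphodiesterase of the olfactory cilium, stood at 2758 and 2371 CPM, against 2762 and 2899 CPM. SLC12A2, the transporter that loads neurons with chloride, stood at 453 and 383 CPM, against 322 and 278 CPM (log2 0.43, edgeR, adjusted p = 0.180, and 0.0462 without nuclei in which another type's list reached the mature count).

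Among 55 tested genes for guidance and adhesion, 2 were called higher (DCC and ROBO1) and 4 lower (SLIT1, NCAM1, CDH8 and LSAMP), against 1.29% and 0.882% of all genes, with a list median of -0.19. ROBO1, a Slit receptor, stood at 152 and 377 CPM in the members, against 80.7 and 114 CPM in NCAM2-type nuclei (log2 1.32, edgeR, adjusted p = 0.0119), and at 194 and 373 CPM in undecided nuclei. SLIT1, a Slit ligand, stood at 168 and 149 CPM, against 334 and 376 CPM (log2 -1.17, edgeR, adjusted p = 0.0102). LSAMP, an adhesion protein of axons, stood at 130 and 112 CPM, against 243 and 312 CPM (log2 -1.17, edgeR, adjusted p = 0.0214). OPCML, an adhesion protein of the same family, had the widest ratio of the list, 3.87, with an adjusted p of 0.0523, but 112 of its 113 UMIs in the CFTR knockout members came from 1 nucleus. Without nuclei in which another type's list reached the mature count its adjusted p was 0.00686, with edgeR.

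Of 43 tested transcription and nuclear factors, 1 was called higher and 2 lower, against 1.29% and 0.882% of all genes. BCL11B, a zinc finger factor that in the mouse favours the choice of class II odorant receptors, stood at 41.8 CPM (30.2 to 56.3) in the CFTR knockout members and 46.9 CPM (29.7 to 70.3) in the wild type members, against 107 and 124 CPM in NCAM2-type nuclei (log2 -1.43, edgeR, adjusted p = 0.0107). EBF1, a factor of olfactory neuron differentiation, stood at 970 and 895 CPM, against 1325 and 1735 CPM (log2 -0.74, edgeR, adjusted p = 0.0288). RARB, a retinoic acid receptor, stood at 149 and 218 CPM, against 96.2 and 91.9 CPM (log2 0.92, edgeR, adjusted p = 0.0483). None of the 3 was called over undecided nuclei, where BCL11B stood at 49.2 and 59.2 CPM.

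Of 32 tested genes of synaptic release, 4 were called lower (0.882% of all genes) and none higher, with a list median of -0.37. CADPS, which primes dense core vesicles, stood at 608 and 453 CPM in the members, against 1022 and 801 CPM in NCAM2-type nuclei (log2 -0.82, edgeR, adjusted p = 0.0120). The calcium sensor SYT1 (log2 -0.57, edgeR, adjusted p = 0.0357) and the active zone gene RIMS3 (log2 -1.10, adjusted p = 0.0205) were also lower. Without nuclei in which another type's list reached the mature count, SYT1 had an adjusted p of 0.157.

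Of 39 tested potassium channel genes, KCNK2 was called higher and KCNH5, KCNH8 and KCNT2 lower, against 1.29% and 0.882% of all genes. KCNH8 stood at 34.0 and 28.5 CPM in the members, against 78.9 and 86.0 CPM (log2 -1.38, edgeR, adjusted p = 0.0191). KCNK2 stood at 86.4 and 143 CPM, against 49.0 and 60.9 CPM (log2 1.02, edgeR, adjusted p = 0.0337), and its log2 ratio was 0.03 without nuclei in which another type's list reached the mature count. None of 9 sodium channel genes was called by edgeR or DESeq2 (4 with an unadjusted p under 0.05 in edgeR, against 14.9% of all genes), nor any of 3 HCN channel genes (1 such). The calcium channel subunit CACNB2 (log2 -0.55, adjusted p = 0.0479) was the only 1 of 11 called by edgeR.

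NQO1 is a target of the oxidative stress factor NRF2, so other targets and detoxifying genes were listed. None of 31 tested was called by edgeR, with 1 called by DESeq2 and 11 with an unadjusted p under 0.05 in edgeR, against 14.9% of all genes, and the list median was 0.55. GSTA1, named above among the called genes, is outside this list. GCLC, the first enzyme of glutathione synthesis, stood at 163 and 185 CPM in the members, against 109 and 40.9 CPM in NCAM2-type nuclei (log2 1.30, edgeR, adjusted p = 0.0624). TXNRD1, a thioredoxin reductase, stood at 153 and 228 CPM, against 112 and 97.8 CPM (log2 0.81, edgeR, adjusted p = 0.0699, and 0.0333 without nuclei in which another type's list reached the mature count). The sustentacular list, which shares the P450 gene CYP2F1 with this one, summed to more CPM in the members than in NCAM2-type nuclei in both libraries, as given above, and its part in these values was not tested. Of the lists of other cell types, edgeR called 1 of 7 sustentacular genes (GLDN) and 1 of 5 basal genes (EGFR) higher in the members.

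The cilium and stress lists gave no call over NCAM2-type apart from MX2. None of 39 sensory cilium genes was called by either tool (5 with an unadjusted p under 0.05 in edgeR, against 14.9% of all genes), with a list median of -0.11. None of 22 genes of the unfolded protein and integrated stress response was called (6 such), none of 12 immediate early genes (2 such), none of 14 apoptosis genes (0 such) and none of 13 mitochondrial transcripts (9 such), by edgeR or DESeq2. Of 27 interferon response genes, MX2 was called by edgeR and none by DESeq2. MX2 had 70 and 17 UMIs in the CFTR knockout and wild type members, against 28 and 6 UMIs in NCAM2-type nuclei.

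Over immature neurons of the same library (at least 3 of the 8 immature genes and fewer mature ones), 894 of 12459 genes were called, 7.18%, with 407 higher (3.27%) and 487 lower (3.91%). The genes that the rule used are left out of these counts. Of the 15 genes for receptor handling, transduction and chloride, 7 were higher and none lower. PDE1C rose by a log2 ratio of 1.70, RIC8B by 1.48, PDE4A by 1.71 and SLC24A4, the exchanger that ends the calcium response, by 1.38 (edgeR, adjusted p from 5.33e-05 to 0.000523). GFY, a Golgi protein needed for olfactory signalling, rose by 1.14, SLC12A2 by 0.74 and UMODL1 by 1.46.

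Nuclear factors went the other way over immature neurons, with 12 of 43 lower and 2 higher. TSHZ1 (log2 -1.83), BCL11B (-1.68), RUNX1T1 (-1.51), EBF1 (-1.27) and LHX2 (-1.14) were among the lower ones, and BCL11A (0.79) and RARB (0.96) the higher ones. Among guidance and adhesion genes 8 were higher, with DCC at 1.70 and the ephrin receptor EPHA7 at 1.57, and 13 lower, with SEMA3A at -1.84 and TENM3 at -0.91. Among sodium channel genes, SCN4B (2.74) and SCN8A (0.99) were higher. Mitochondrial transcripts were called higher for 12 of 13, with a list median of 0.68. They made up 1.31% of UMIs in the CFTR knockout members and 3.76% in the wild type members, against 0.880% and 2.16% in immature neurons.

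The levels of DCC, FAM19A4 and ACSM4 were followed over the margin by which NQO1 outnumbered NCAM2. DCC stood at 222 CPM (185 to 264) in the 139 CFTR knockout members with a margin of 1 UMI, 370 CPM (288 to 468) in the 44 with 2 and 446 CPM (370 to 533) in the 58 with 3 or more, against 98.1 CPM in undecided nuclei. In the wild type members it stood at 103 CPM (67.6 to 149), 130 CPM (64.8 to 232) and 259 CPM (183 to 358), against 27.4 CPM in undecided nuclei. In both libraries the interval at a margin of 3 or more lay above that at 1. The margin is made of the UMIs that chose the members, and each interval covers only counting error in pooled nuclei of 1 animal. The course of DCC over it is therefore a description and was not tested. FAM19A4 stood at 149, 215 and 173 CPM in the CFTR knockout and at 34.2, 59.0 and 161 CPM in the wild type members, with intervals at 1 and at 3 or more that overlapped in the CFTR knockout but not in the wild type library, where they rest on 9 and 23 UMIs. ACSM4 stood at 192, 231 and 203 CPM and at 163, 200 and 252 CPM, with overlapping intervals throughout. The medians were 2972, 3239.5 and 3733 UMIs per nucleus in the CFTR knockout and 3827, 3206.5 and 4515 in the wild type library, so the members with a margin of 3 or more were the deepest in both libraries.

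**Figure D4:**
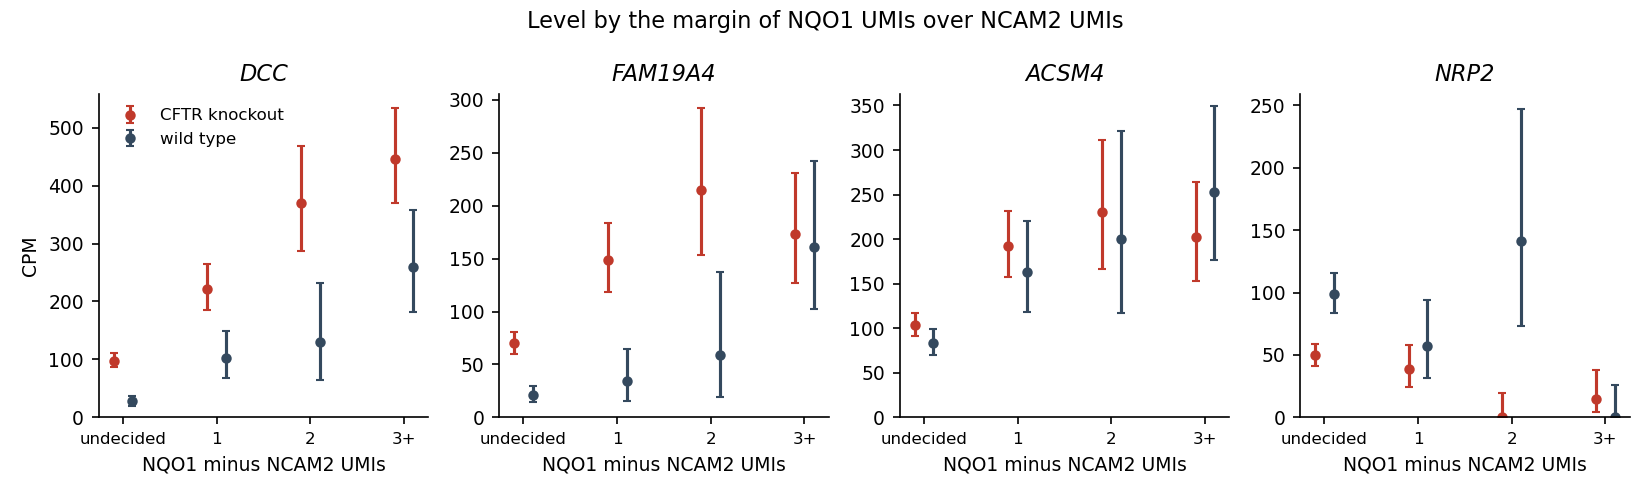
Level (CPM, with 95% Poisson intervals) of 4 genes in undecided mature neurons and in NQO1-type nuclei by the number of UMIs by which NQO1 exceeded NCAM2 (1, 2, 3 or more), in the CFTR knockout library (red) and the wild type library (dark blue). DCC is lowest in undecided nuclei and highest at a margin of 3 or more in both libraries. NRP2 has no steady course over the margin. In the wild type members it is at 57.0 CPM at 1, 142 CPM (73.1 to 247) at 2 and 0 at 3 or more, against 98.7 CPM in undecided nuclei. In the CFTR knockout members it is at 38.5, 0 and 14.8 CPM, against 49.6 CPM in undecided nuclei.

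The members were not uniform. At least 1 of DCC, FAM19A4 and ACSM4 was detected in 147 of the 241 CFTR knockout members and 62 of the 96 wild type members, against 60 of 258 and 142 of 587 NCAM2-type nuclei. The members with any of them were deeper, with medians of 3554 and 4225 UMIs, than those with none, with 2850 and 3462.5. In the CFTR knockout library a FAM19A4 UMI was found in 34 of the 74 members with DCC, 45.9%, and in 15.0% of those without it. Among wild type members it was found in 3 of the 24 with DCC, 12.5%, and in 13.9% of those without it. The difference between the libraries in that pairing was not tested.

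Odorant receptor transcripts were rare. The tables list 110 receptor genes with symbols, 23 of them of class I, the family that in the mouse is expressed in dorsal neurons. A receptor UMI was found in 20 of 241 CFTR knockout members, 8.30% (5.14 to 12.5), and 9 of 96 wild type members, 9.38% (4.38 to 17.1). In NCAM2-type nuclei it was found in 7 of 258, 2.71% (1.10 to 5.51), and 22 of 587, 3.75% (2.36 to 5.62). A count of at least 2 UMIs of a receptor gene is a stricter sign that the nucleus expressed it. That count was reached in 2 CFTR knockout members, 0.83% (0.10 to 2.97), and 3 wild type members, 3.1% (0.65 to 8.86). In NCAM2-type nuclei it was reached in 1 of 258, 0.388% (0.0098 to 2.14), and 10 of 587, 1.70% (0.82 to 3.11). These intervals overlapped between the classes in each library. OR3A1 (6 UMIs) and OR6K3 (3 UMIs) marked 1 CFTR knockout member each, and OR51J1 (10 UMIs), OR51V1 (3 UMIs) and OR8B12 (2 UMIs) 1 wild type member each. Class I genes took 5 of the 20 CFTR knockout and 3 of the 9 wild type members with a receptor UMI, against 0 of 7 and 2 of 22 NCAM2-type nuclei. No member held UMIs of 2 receptor genes, and the 4 trace amine receptor genes had 0 UMIs in the members. Undecided nuclei also had class I transcripts, in 8 of 30 and 2 of 14 nuclei with a receptor UMI.

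Knockout and wild type members were compared without a test, since each is 1 library. The widest differences above 0 were in DTHD1, KIAA2012, ANKFN1, BTG4, DHRS9, IDO2, SEMA3E, SERPINB11, WDR49, BPIFB1, NWD2 and BPIFA1. All of these but BPIFA1 had at most 1 UMI in the wild type members, so the sizes of their ratios rest on that low count. WDR49 had 0 there, and its ratio uses the floor of 3 counts. Its UMIs lay in 16 CFTR knockout members, 1 of which held 61. Among them BPIFA1 and BPIFB1 encode secreted proteins of the airway, SERPINB11 a serpin of epithelia and DHRS9 a retinol dehydrogenase, while SEMA3E encodes a semaphorin. Of 6160 genes with at least 50 UMIs over both sums, 334 (5.42%) were at least 2-fold higher and 192 (3.12%) at least 2-fold lower in the CFTR knockout members. The median log2 ratio was 0.09.

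DTHD1 had 315 UMIs in the CFTR knockout members, 306 CPM, and 1 UMI in the wild type members, 2.04 CPM, a log2 ratio of 7.23 (4.74 to 12.5). Its UMIs lay in 25 of the 241 nuclei, with 61 in 1 of them. The ratio was 6.89 in NCAM2-type and 2.97 in undecided nuclei, and 3.16 in nuclei outside the neuron classes. BPIFA1 was spread more widely, with 543 UMIs in 176 of the 241 CFTR knockout members (73.0%) and 7 UMIs in 3 of the 96 wild type members. It was found in 187 of 258 NCAM2-type and 515 of 720 undecided CFTR knockout nuclei too, 72.5% and 71.5%, so the share was alike in the 3 classes. Of these 12 genes, SEMA3E had the widest gap to NCAM2-type, with 104 UMIs (101 CPM) in 35 CFTR knockout members and 1 UMI in the wild type members, against 71.7 and 45.1 CPM in NCAM2-type nuclei. In immature neurons SEMA3E was on the other side, at 78.7 CPM in the CFTR knockout library and 101 CPM in the wild type library (log2 -0.36, -0.59 to -0.13).

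The respiratory ciliated list was higher in the CFTR knockout members for all 5 genes with enough UMIs, with a median log2 ratio of 1.23, and 3 of them (DNAH5, DNAH9 and SPAG17) were past 2-fold. DNAH5, an axonemal dynein, stood at 704 CPM, against 177 CPM in the wild type members. The median was 0.30 in NCAM2-type and 1.38 in undecided nuclei and 1.80 outside the neuron classes. Nuclei of the ciliated type numbered 579 in the CFTR knockout library and 86 in the wild type library. Of the sensory cilium list, 27 of 33 genes were above 0, with a median of 0.40, against 58.1% of all genes above 0. IFT46 stood at 98.1 and 32.6 CPM and TULP3 at 94.2 and 38.7 CPM, the 2 past 2-fold, and the list median was 0.43 outside the neuron classes. The part of ciliated cells' transcripts in these values was not tested.

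The widest differences below 0 were in TP63, AK5, SCARA5, CFTR, ND3, CYP2F1, SULT1B1, MGAM2, PDGFD, NNAT, NR2E1 and PCSK5. TP63, the master regulator of basal cells, had 6 UMIs in the CFTR knockout members and 55 in the wild type members, 5.83 against 112 CPM, a log2 ratio of -4.27 (-5.77 to -3.05). Its wild type UMIs lay in 8 nuclei, 1 of which held 17. The ratio of TP63 was 0.15 (-1.24 to 1.39) in NCAM2-type and 0.68 (0.22 to 1.15) in undecided nuclei, and -0.74 outside the neuron classes. CYP2F1, a P450 of sustentacular cells, stood at 34.0 and 194 CPM, a ratio of -2.51, and at -0.84 in NCAM2-type and -3.18 in undecided nuclei. A wild type member held 31 of the 58 UMIs of AK5, 1 held 40 of the 60 of PDGFD and 1 held 40 of the 64 of NNAT. Mitochondrial transcripts were lower in the CFTR knockout members for all 12 with enough UMIs, 10 of them past 2-fold, with a median of -1.67. The same median was -1.53 in NCAM2-type and -1.52 in undecided nuclei and -1.18 outside the neuron classes.

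**Figure D5:**
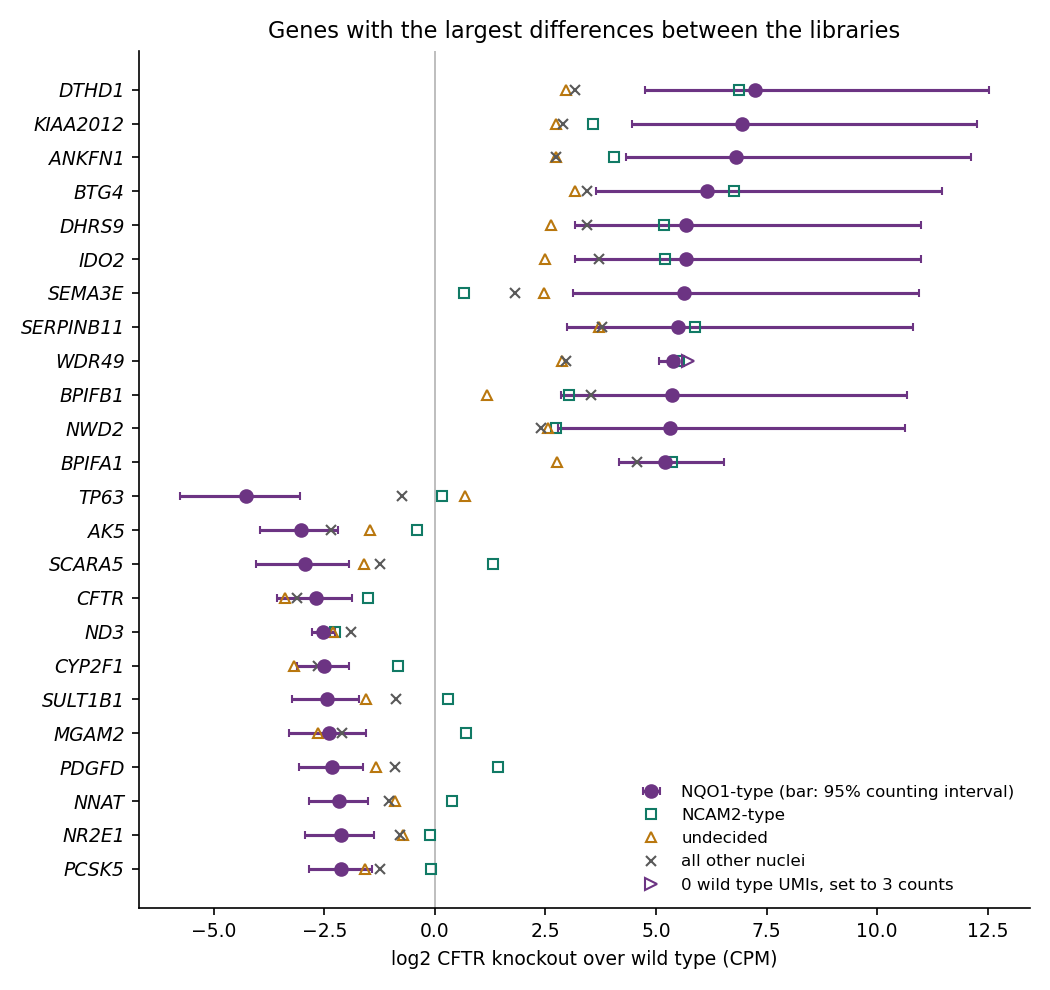
Log2 ratio of CFTR knockout over wild type (CPM) of the 12 highest and 12 lowest named genes in NQO1-type nuclei (purple, with 95% counting intervals), beside the ratio in NCAM2-type (green squares), undecided (orange triangles) and all nuclei outside the neuron classes (crosses). The open purple triangle marks WDR49, with 0 wild type UMIs set to 3 counts. The 12 upper genes are also above 0 in the other 3 groups, and among the lower ones PDGFD and SCARA5 lie past 2-fold above 0 in NCAM2-type nuclei.

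Over all genes 5.42% were past 2-fold higher and 3.12% lower. Of 36 guidance and adhesion genes with enough UMIs, DCC was past 2-fold higher, with a log2 ratio of 1.01 (0.64 to 1.39), against 0.71 in NCAM2-type and 1.84 in undecided nuclei and 1.00 outside the neuron classes. OPCML was the other, through the nucleus named above. SEMA3A, ROBO1, NRCAM and TENM4 were past 2-fold lower, with ROBO1 at -1.32 against -0.50 in NCAM2-type nuclei. Of 10 genes for receptor handling, transduction and chloride, GFY (-1.26) and UMODL1 (-1.16) were past 2-fold lower, with GFY at -1.35 in NCAM2-type nuclei. NRP2 was at -1.12, from 26 and 27 UMIs. Of 24 synaptic genes BSN was past 2-fold higher (1.28), of 28 nuclear factors CBX5 (1.00), and none of 19 potassium, 6 sodium or 5 calcium channel genes was past 2-fold. Of 22 NRF2 and detoxifying genes, ALDH1A1 and ALDH1A2, which make retinoic acid, were past 2-fold higher and ME1, CYP2F1 and CYP2A19 lower. ALDH1A1 stood at 290 CPM in the CFTR knockout members and 106 CPM in the wild type members, a log2 ratio of 1.45 (1.03 to 1.91), against 2.57 in NCAM2-type nuclei and 1.39 outside the neuron classes.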

How the data were processed

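Frozen sections of olfactory neuroepithelium from a CFTR knockout and a wild type newborn piglet were homogenised in citric acid buffer and nuclei were run on the 10x Genomics platform, per the labels' protocols. The deposited files hold raw UMI counts per gene and nucleus that the authors made. The submitters' processing notes list R 4.0.2, Seurat 4.0 and Cell Ranger without saying what each did. No source used here names the genome build. The files were matched to the libraries by the endings of the sample titles. Of 25880 genes listed, 8256 had only an Ensembl ID, and symbols were found for 1029 of them in a gene name table. The members and the gene lists were chosen with earlier results of these data known.

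Counts were summed per library and class. Sums of NQO1-type, NCAM2-type and immature nuclei (6 sums, 2 residual degrees of freedom) were fitted with edgeR 4.0.16 in R 4.3.3 (quasi-likelihood test, TMM, library as a block, at least 20 UMIs per gene) with Benjamini-Hochberg adjustment. DESeq2 1.42.0 was an alternative. The libraries differ in genotype and each is 1 animal. The block takes up the difference in level between the libraries. The p-values therefore measure how far differences between the 3 classes vary between the 2 libraries, with the spread shared in part across genes. They do not measure the spread between animals of 1 genotype. The fit was tested on simulated data, with changes set in genes with at least 100 UMIs. It recovered 54 of 100 changes of log2 size 1 and 94 of 100 of size 2. A gene that was not called may therefore still differ by 2-fold. The ratio of CFTR knockout over wild type was computed for genes with at least 50 UMIs, with no test. Poisson, Clopper-Pearson and conditional binomial intervals (95%) cover counting error only, and a count of 0 was read against a floor of 3 counts. Scrublet in scanpy 1.11.5 marked the nuclei with the highest doublet scores, at 0.8% per 1000 nuclei, and they were left out in an alternative only. Named genes were the 15 highest and 15 lowest by log2 ratio among called genes with at least 100 UMIs and 1 direction in both libraries, the 12 highest and 12 lowest for genotype, and members of the lists. PPA1 was chosen after its values were seen, and examples from the lists include some with fewer than 100 UMIs in the members. Python 3.11.15, numpy 2.4.6, scipy 1.17.1, pandas 2.3.3 and matplotlib 3.10.9 were used. Results for a few list members are not reported here.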

Additional observations from a re-analysis of the deposited data

Results flagged for a closer look

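PDGFD and SCARA5 differed in opposite directions between CFTR knockout and wild type nuclei in the 2 classes of mature neurons. PDGFD had a log2 ratio of -2.33 in NQO1-type nuclei (25 UMIs in the CFTR knockout and 60 in the wild type library, 40 of the wild type ones in 1 nucleus) and 1.42 (0.65 to 2.20) in NCAM2-type nuclei (30 and 31 UMIs). SCARA5 had a log2 ratio of -2.93 in NQO1-type nuclei (11 and 40 UMIs, with 20 of the wild type ones in 1 nucleus) and 1.30 (0.23 to 2.36) in NCAM2-type nuclei (16 and 18 UMIs). The ratios in NQO1-type nuclei stayed below 0 but depended on the setting. Without nuclei in which another type's list reached the mature count, they were -0.62 for PDGFD and -2.68 for SCARA5. Without the highest Scrublet scores they were -3.05 and -1.75. With the mean of CPM per nucleus in place of summed UMIs they were -1.40 and -2.80. The difference between the classes was not tested.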

How the results depend on the processing

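The 271 calls over NCAM2-type became 34 with 4 mature genes required, 36 with a margin of 2 UMIs, 4 with nuclei thinned to 1000 UMIs, 135 without the highest Scrublet scores, 935 with no filter on low counts, 589 with sums of NQO1-type and NCAM2-type nuclei alone and 2 without the library (replicate) block, and the cause was not tested. The 894 calls over immature neurons became 581 with a margin of 2 UMIs, 327 thinned, 552 with DESeq2, 1482 with no filter, 201 without the library (replicate) block and 1434 without nuclei in which another type's list reached the mature count. Leaving out those nuclei and adding the undecided neurons to the fit were chosen after seeing the data. The 526 genes past 2-fold between CFTR knockout and wild type members became 23 thinned, 329 without those nuclei, and 1188 and 104 with a minimum of 20 and 200 UMIs. Without those nuclei the log2 ratio went from -4.27 to -2.83 for TP63 and from -2.16 to -0.21 for NNAT. It went from 5.69 to 2.99 for DHRS9 and from 5.67 to 3.12 for IDO2. The ratios of BPIFA1 (5.21 to 6.44), AK5, CFTR and ND3 moved further from 0. No named gene changed direction there. The share of members with a receptor gene was 1.48% at 2 UMIs and 8.61% at 1 UMI. GSTA1 reversed, to a log2 ratio of -0.79 over NCAM2-type (edgeR, adjusted p = 0.725) with 4 mature genes required. The libraries are 1 per genotype, so no library could be left out of the genotype comparison.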
